A study of Mus musculus with 5 samples.

Results

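Autotaxin and the receptors of its product were followed through the fusion of mouse embryonic stem (ES) cells with a hepatoma line and the differentiation of the resulting hybrids. The genes were chosen by name and comprised 3 ectonucleotide pyrophosphatase/phosphodiesterase genes (*Enpp2*, which encodes autotaxin, *Enpp1* and *Enpp3*) and 5 lysophosphatidic acid (LPA) receptor genes (*Lpar1*, *Lpar2*, *Lpar3*, *Lpar4* and *Lpar6*). These 8 of the 18327 genes named on the array were measured by 9 of its 41174 gene probes, with 2 probes for *Lpar4* and 1 for every other gene. The choice was made with their levels in view, so the levels and differences are given as a description.

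Total RNA of 5 cell populations was hybridised to single-colour mouse expression arrays, 1 array for each population. ES were E14 mouse embryonic stem cells kept in GMEM with 10% knockout serum replacement, 1% fetal bovine serum and 1000 units per ml of leukaemia inhibitory factor. Hepa1-6 was a mouse hepatoma line grown in DMEM with 10% fetal calf serum. EHe were hybrids of E14 and Hepa1-6 cells kept in the ES medium. EHeD7 and EHeD14 were the same hybrids after 7 and 14 days of differentiation, by the labels as a monolayer on gelatin in high-glucose DMEM with 15% fetal calf serum. The ES parent carried red fluorescent protein and hygromycin resistance and the hepatoma parent carried green fluorescent protein and neomycin resistance. Hybrids were taken as colonies that survived both drugs, and the labels do not say how many colonies the RNA came from. With 1 array per population there is no replicate error, no test was made, and every difference below is a difference between 2 arrays.

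Levels are log2 of the processed signal minus log2 of the 75th percentile of the array, so 0 marks that percentile, and a level is compared only with the same probe on other arrays. Between 54.7% and 67.6% of the probes of an array were called well above background by the scanner software, and no spot was saturated. A probe below that call has only an upper limit, and a fold against it is written as "at least". Of the 245 probes printed 10 times, 139 to 180 were well above background on an array. Their spot-to-spot SD had a median of 0.0857 log2 units, so gaps of 0.24 or less lay within 2 such SDs of a difference. The 90th percentile of this SD ran from 0.16 in Hepa1-6 to 0.23 in ES, so some probes vary more. That spread covers spots of one array and not cultures or hybridisations. The ES, EHe, EHeD7 and EHeD14 arrays shared a slide and Hepa1-6 lay on another, so the slide and the cell line cannot be told apart.

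The labels were set against marker genes. The 4 pluripotency markers measured (*Pou5f1*, *Sox2*, *Zfp42* and *Esrrb*) were all well above background in ES, EHe, EHeD7 and EHeD14, and none was in Hepa1-6. Their summed level, in units of the 75th percentile signal, was 93.0 in ES and 0.0282 in Hepa1-6, and in the hybrids 95.3 before differentiation, 31.8 at day 7 and 23.7 at day 14. The 4 did not move alike. *Pou5f1* was at 4.05 in EHe, 4.41 at day 7 and 4.18 at day 14, whereas *Zfp42* and *Esrrb* were lower at day 14 than in EHe by log2 differences of -4.09 and -6.86. Of the 5 hepatocyte markers measured, *Alb*, *Afp* and *Fgb* were well above background in Hepa1-6 while *Ttr* and *Apoa1* were not. *Afp* was also above background in ES, and none of the 5 was in EHe, EHeD7 or EHeD14.

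Autotaxin is a secreted lysophospholipase D that releases LPA from lysophosphatidylcholine, and LPA then signals through G protein-coupled receptors. LPA receptors 1 to 3 belong to the endothelial differentiation gene family, whereas LPA receptors 4 and 6 are related to the purinergic P2Y receptors. ENPP1 and ENPP3 share the catalytic fold of autotaxin but cleave nucleotides in place of lysophospholipids. In liver, autotaxin and LPA are known for their links to fibrosis and hepatocellular carcinoma.

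*Enpp2* was below detection in both undifferentiated populations and well above background at both days of differentiation and in Hepa1-6. Its level was -6.87 in ES and -6.90 in EHe, neither well above background, then 1.52 in EHeD7 and 1.41 in EHeD14, and 0.91 in Hepa1-6. The 3 arrays with autotaxin signal lay far above the other arrays, with no values in between. These 3 were also the populations grown in 10% or 15% fetal calf serum with no leukaemia inhibitory factor listed, and the part of the medium was not tested. *Enpp2* was at least 81.9-fold higher in EHeD7 and at least 76.1-fold higher in EHeD14 than in EHe. Hepa1-6 was at least 80.0-fold above ES. The 0.11 gap between EHeD7 and EHeD14 lay within spot noise. EHeD14 was 1.42-fold above Hepa1-6, but this order turned when arrays were centred on their medians, to a log2 difference of -0.30. These are bulk samples, in which a larger share of autotaxin-expressing cells and more transcript per cell cannot be told apart.

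**Figure D1:**
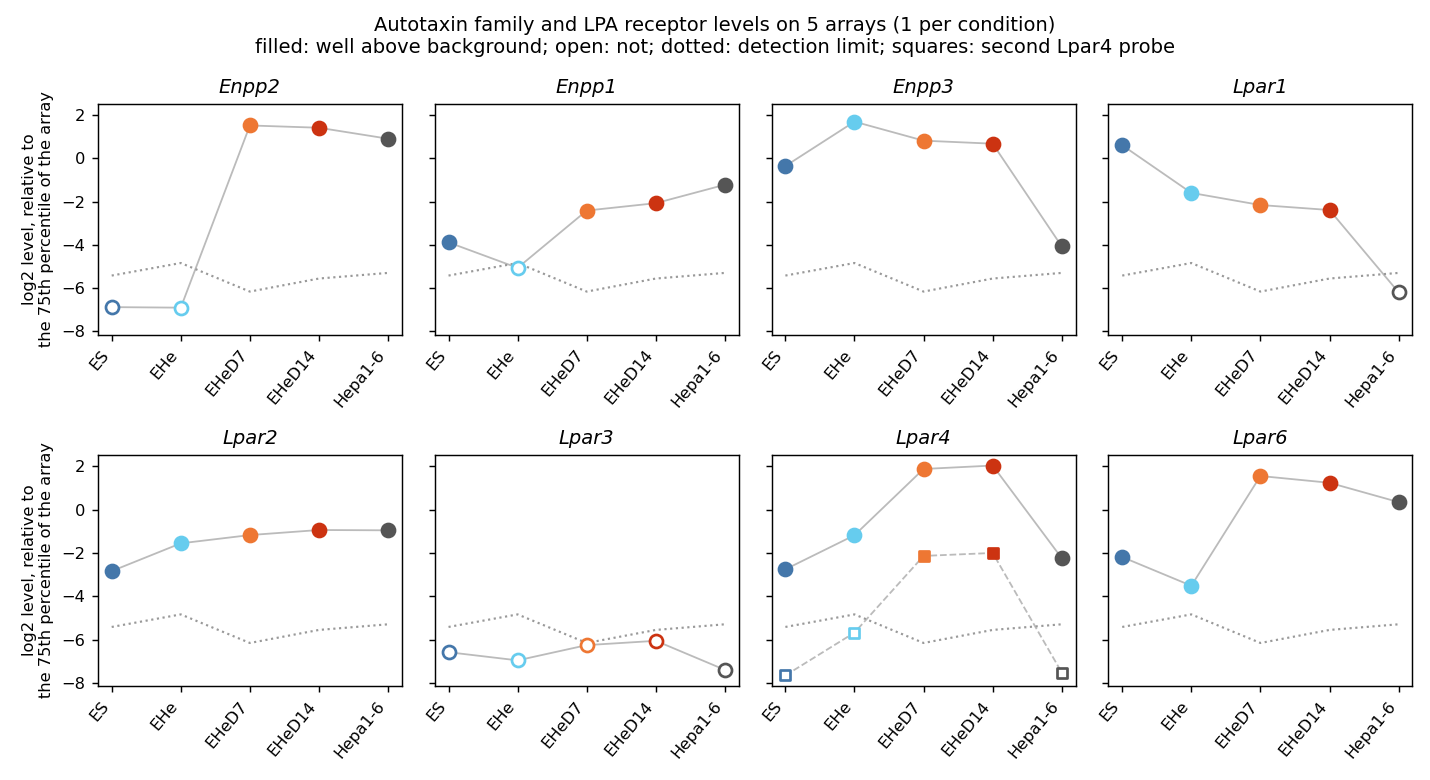
Levels of the 8 genes on each of the 5 arrays, as log2 units relative to the 75th percentile of the array (vertical axis); filled points were well above background, open points were not, and the dotted line is the lowest level called well above background on each array. *Enpp2*, *Lpar4* and *Lpar6* sat higher in EHeD7 and EHeD14 than in EHe, *Lpar1* was highest in ES, and *Lpar3* was open on all 5 arrays.

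*Enpp1*, the pyrophosphatase that makes inorganic pyrophosphate from ATP, was low in the undifferentiated cells and higher in the others. Its level was -3.88 in ES, -5.06 in EHe (not well above background), -2.41 in EHeD7, -2.07 in EHeD14 and -1.22 in Hepa1-6. The hybrid lay at least 1.94-fold below ES before differentiation. It was at least 5.36-fold higher in EHeD7 and at least 6.80-fold higher in EHeD14 than in EHe, which placed both differentiated arrays between the parents. Hepa1-6 was 6.33-fold above ES. Under the normexp background correction, the log2 differences against EHe were 1.02 at day 7 and 1.31 at day 14, both under 3-fold.

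*Enpp3*, the family member known for cleaving extracellular nucleotides on basophils and mast cells, ran the other way. Its level was -0.36 in ES and -4.07 in Hepa1-6, and in the hybrids 1.69 before differentiation, 0.82 at day 7 and 0.68 at day 14, well above background on every array. All 3 hybrid arrays lay above both parents, and Hepa1-6 was lowest. EHe was 4.15-fold above ES, the nearer parent. Differentiation went with lower levels, 1.84-fold lower in EHeD7 and 2.03-fold lower in EHeD14 than in EHe, and the 2 days differed by 0.14, within spot noise. Hepa1-6 was 13.1-fold below ES, and EHeD14 remained 26.9-fold above Hepa1-6.

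Among the receptors, *Lpar4* and *Lpar6* were the ones that stood far higher after differentiation. LPA receptor 4 is known to couple to several G proteins and to raise cyclic AMP, and its brighter probe gave -2.75 in ES and -2.24 in Hepa1-6, and in the hybrids -1.18 before differentiation, 1.88 at day 7 and 2.04 at day 14. The 2 differentiated arrays lay above all others and within spot noise of each other. *Lpar4* was 8.34-fold higher in EHeD7 and 9.32-fold higher in EHeD14 than in EHe. Both days also lay above both parents, 17.4-fold (EHeD7) and 19.4-fold (EHeD14) over Hepa1-6, the nearer one. EHe was 2.98-fold above ES, just short of the 3-fold used for counting.

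The second *Lpar4* probe was dimmer and had the same shape. It gave -7.66 in ES, -5.68 in EHe and -7.52 in Hepa1-6, none well above background, against -2.13 in EHeD7 and -2.00 in EHeD14. By this probe *Lpar4* was at least 6.51-fold higher in EHeD7 and at least 7.15-fold higher in EHeD14 than in EHe. EHeD14 was at least 9.82-fold above Hepa1-6.

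*Lpar6*, the receptor known for hair follicle development through LPA made in the skin, had levels of -2.19 in ES and 0.35 in Hepa1-6, and in the hybrids -3.51 before differentiation, 1.56 at day 7 and 1.24 at day 14. As with *Enpp2*, both differentiated arrays and Hepa1-6 lay above both undifferentiated arrays. The EHe level was 2.51-fold below ES, and from there *Lpar6* was 33.6-fold higher in EHeD7 and 27.0-fold higher in EHeD14. Hepa1-6 was 5.81-fold above ES. EHeD14 was 1.86-fold above Hepa1-6, a log2 difference of 0.89 that shrank to 0.08 when arrays were centred on their medians.

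*Lpar1*, the most widely expressed LPA receptor and one that couples to Gi, Gq and G12/13 proteins, was highest in ES. Its level was 0.60 in ES and -6.19 in Hepa1-6, the latter not well above background, and in the hybrids -1.60 before differentiation, -2.16 at day 7 and -2.39 at day 14. The order went from ES through the hybrids to Hepa1-6, with the 2 differentiated arrays within spot noise of each other. *Lpar1* was 4.60-fold lower in EHe than in ES, and a further 1.47-fold lower in EHeD7 and 1.73-fold lower in EHeD14 than in EHe. Hepa1-6 was at least 59.7-fold below ES and at least 7.49-fold below EHeD14.

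*Lpar2*, a receptor of the same family, varied least among the detected receptors. Its level was -2.84 in ES and -0.95 in Hepa1-6, and in the hybrids -1.55 before differentiation, -1.17 at day 7 and -0.94 at day 14. ES was lowest, and neighbours among EHeD7, EHeD14 and Hepa1-6 lay within spot noise. With arrays centred on their medians, however, EHeD14 minus Hepa1-6 was -0.80. EHe was 2.43-fold above ES, EHeD14 was 1.53-fold above EHe, and Hepa1-6 was 3.69-fold above ES, a log2 difference of 1.88 that was 1.42, under 3-fold, with normexp. *Lpar3*, the third receptor of that family, was not well above background on any array, with values from -7.40 in Hepa1-6 to -6.06 in EHeD14, so no fold is given for it.

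**Figure D2:**
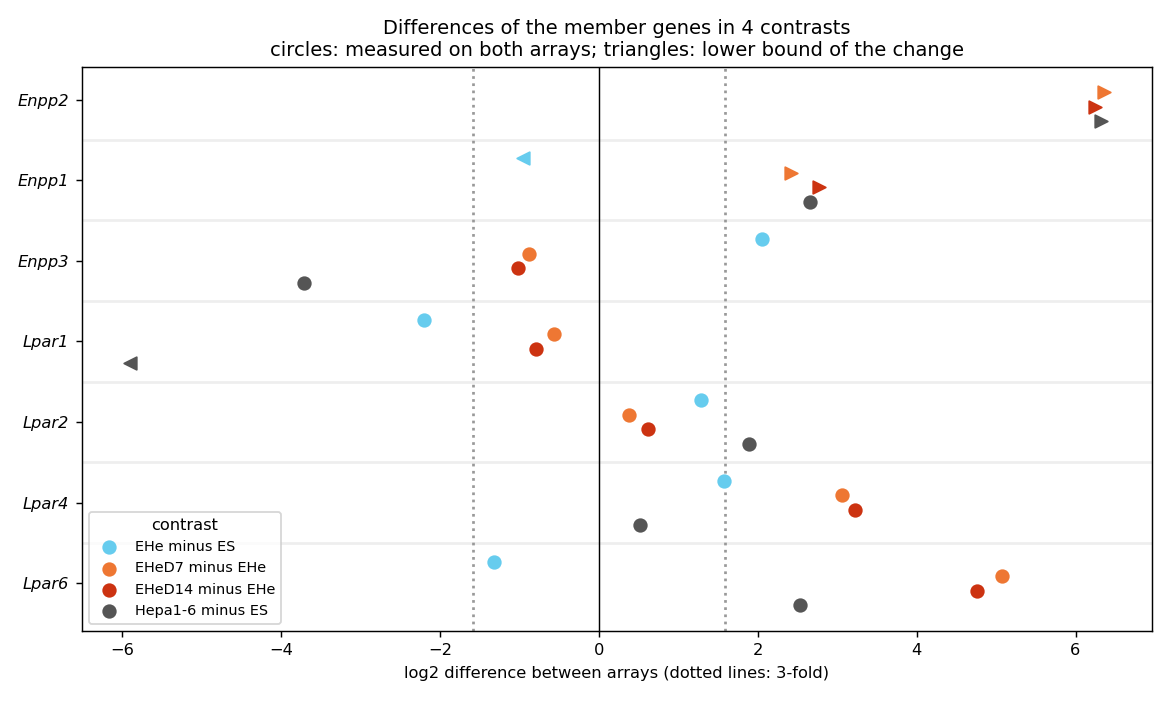
Log2 differences (horizontal axis) of the 7 detected genes in 4 contrasts; circles were measured on both arrays, triangles are lower bounds of the change where 1 array was not well above background, and dotted lines mark 3-fold. *Enpp2*, *Enpp1*, *Lpar4* and *Lpar6* lay to the right of the 3-fold line at both days of differentiation, and *Enpp3* and *Lpar1* lay to the left of it between Hepa1-6 and ES.

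The 7 genes that passed the detection filter were also counted past 3-fold, beside all 29921 probes that had a value on all 5 arrays and were detected on 1 or more. In EHeD7 against EHe, 4 of 7 were over 3-fold higher (*Enpp2*, *Enpp1*, *Lpar4* and *Lpar6*), where 7.98% of all probes were, and 0 were over 3-fold lower, where 4.23% were. In EHeD14 against EHe the same 4 genes were higher, beside 8.19% of all probes, and 0 were lower, beside 4.67%. The median log2 difference of the 7 genes as measured was 2.65 at day 7 and 2.99 at day 14, and that of all probes was -0.08 and -0.07. Both medians of the 7 fell on *Enpp1*, whose EHe value was not well above background, and were 2.42 and 2.76 with *Enpp1* and *Enpp2* at their bounds. Nothing is read from these shares, since the genes were picked with these contrasts in view. Between EHeD14 and EHeD7, 0 of 7 passed 3-fold in either direction, beside 1.23% of probes higher and 1.43% lower.

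Between the parents, 4 of 7 genes lay over 3-fold above ES in the hepatoma line (*Enpp2*, *Enpp1*, *Lpar2* and *Lpar6*), beside 14.4% of probes. *Enpp3* and *Lpar1* were over 3-fold lower, beside 25.3% of probes. In EHe against ES, *Enpp3* alone of the 7 was over 3-fold higher, beside 3.68% of probes, and *Lpar1* alone was over 3-fold lower, beside 5.66%. *Lpar4* joined the higher genes there under quantile normalization (1.66), median centring (1.69) and the mean of its probes (1.78). EHeD14 was over 3-fold above Hepa1-6 for *Enpp3*, *Lpar1* and *Lpar4*, beside 22.0% of probes, and below it for 0 of 7, beside 12.8%. *Enpp1* joined the latter, at -1.66, when arrays were centred on their medians. The median over all probes was -0.39 for Hepa1-6 minus ES and 0.28 for EHeD14 minus Hepa1-6, and median centring moved them to 0.38 and -0.53. Differences against Hepa1-6 that are smaller than this shift therefore depend on the scaling.

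Measured against both parents together, *Enpp3* was the 1 gene of 7 for which EHe lay over 3-fold above the higher parent, beside 2.06% of probes. *Lpar4* was the 1 gene of 7 for which both EHeD7 and EHeD14 did so, beside 3.92% of probes. *Enpp2* was 1.53-fold above Hepa1-6 in EHeD7. *Lpar6* was 2.31-fold above Hepa1-6 in EHeD7, and *Enpp3* was 2.26-fold above ES in EHeD7 and 2.05-fold above it in EHeD14.

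**Figure D3:**
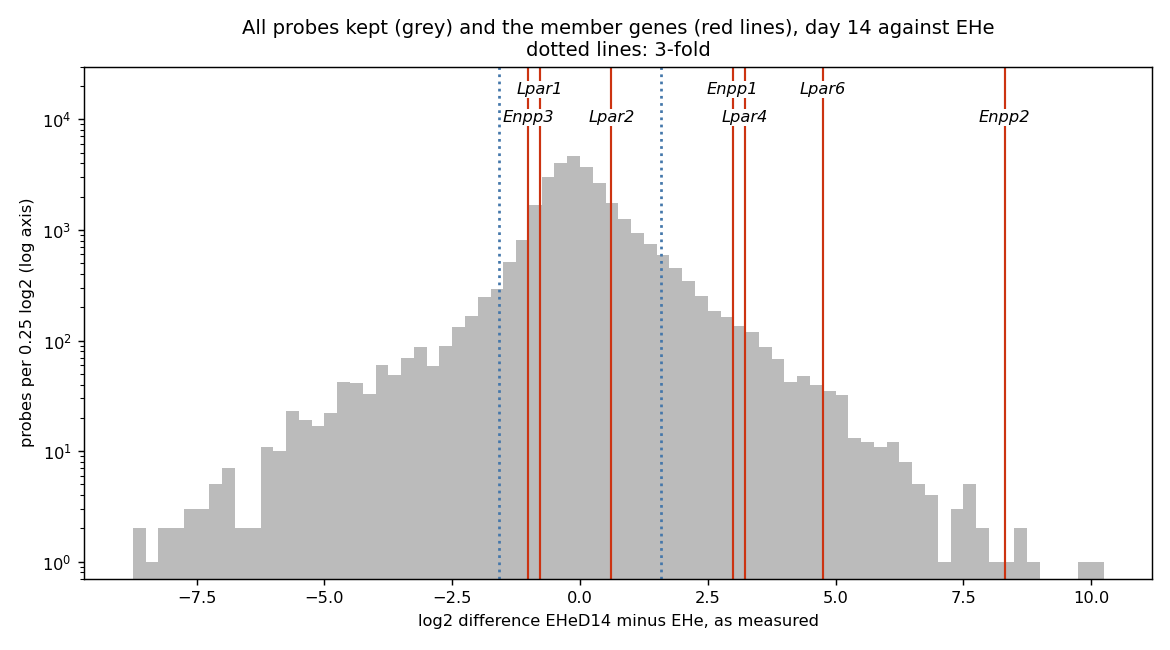
Number of probes per 0.25 log2 (vertical log axis) against the log2 difference EHeD14 minus EHe as measured (horizontal axis), for all 29921 probes, with the 7 detected genes as red lines. *Enpp2*, set against an EHe value not well above background, lay in the right tail, *Lpar6*, *Lpar4* and *Enpp1* beyond the 3-fold line, and *Lpar2*, *Lpar1* and *Enpp3* inside both 3-fold lines.

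Promoter sequences are shown for *Lpar4*, *Lpar6* and *Enpp1*, which were all higher in EHeD7 and EHeD14 than in EHe. Each is the 250 bases before the RefSeq start on GRCm38.p6, written 5′ to 3′ on the strand of the gene. Capitals mark matches on either strand to TATAAA (the TATA box), GGGCGG (the GC box), TGANTCA (the AP-1 element), TGTTTAC (a forkhead element) or GGAATG (the core bound by TEAD factors).
Lpar4 promoter, chrX:106920375-106920624, + strand: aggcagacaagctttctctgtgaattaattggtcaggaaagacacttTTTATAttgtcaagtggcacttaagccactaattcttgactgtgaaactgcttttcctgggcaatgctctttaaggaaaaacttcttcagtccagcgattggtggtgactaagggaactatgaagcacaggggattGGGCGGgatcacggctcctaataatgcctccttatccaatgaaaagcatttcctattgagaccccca
Lpar6 promoter, chr14:73237641-73237890, + strand: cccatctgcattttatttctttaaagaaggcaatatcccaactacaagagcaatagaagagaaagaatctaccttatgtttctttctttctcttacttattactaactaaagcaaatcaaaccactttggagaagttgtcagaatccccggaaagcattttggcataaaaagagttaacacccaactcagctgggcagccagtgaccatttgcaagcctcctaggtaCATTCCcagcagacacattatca
Enpp1 promoter, chr10:24712160-24712409, - strand: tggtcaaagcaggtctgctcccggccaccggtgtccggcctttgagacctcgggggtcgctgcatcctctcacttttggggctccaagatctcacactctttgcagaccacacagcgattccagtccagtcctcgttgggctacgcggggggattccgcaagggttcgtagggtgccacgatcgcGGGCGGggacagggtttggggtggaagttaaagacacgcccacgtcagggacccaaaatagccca

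The 3 promoters had no motif that all of them shared. *Lpar4* held GGGCGG 67 to 62 bases before the start and TATAAA on the opposite strand 203 to 198 bases before it. *Lpar6* held GGAATG on the opposite strand 23 to 18 bases before the start, and *Enpp1* held GGGCGG 65 to 60 bases before it. Of all 32851 promoter windows, 32.7% held GGGCGG, 12.4% TATAAA, 12.6% GGAATG, 6.75% TGANTCA and 3.17% TGTTTAC. GC content was 43.6% for *Lpar4*, 39.2% for *Lpar6* and 61.2% for *Enpp1*, beside a median of 52.4% over all windows. Sequences were matched for 7 of the 8 genes, and *Enpp2* had none. Among the other 4, the *Lpar2* window held TGANTCA and GGGCGG, and the *Enpp3* window held TATAAA on the opposite strand. *Lpar3* and *Lpar1* held GGGCGG, the latter not in every window. No window of the 7 held TGTTTAC, which says only that these letters were not in the 250 bases searched. No motif in the 5 searched overlapped another in these windows.

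Genes around the axis were taken as 8 lists of 67 genes, of which 59 passed the detection filter. At both days against EHe, 11 of the 59 were over 3-fold higher and 3 were over 3-fold lower, beside 6.29% and 3.47% of all probes. Of the 11, 8 came from a single list, the YAP and serum response factor targets given below. The others were *Plppr4*, *Agpat3* and *S1pr1*, and the EHe values of *Plppr4* and *S1pr1* were not well above background. Of the other ENPP genes, only *Enpp4* was detected, at 0.23 in EHe against -2.61 in EHeD7 and -2.23 in EHeD14, 7.15-fold and 5.50-fold lower, and its second probe was also lower. *Enpp4*, a membrane-bound hydrolase of dinucleotides, thus moved opposite to *Enpp2* within the hybrids. Between the parents it did not, at 0.16 in ES and 0.22 in Hepa1-6, 1.04-fold apart. *Lpar5*, which falls outside the naming rule and was picked after its values were seen, was the 1 further LPA receptor detected. Its levels were -3.15 in ES and -4.76 in Hepa1-6, and in the hybrids -2.77 before differentiation, -3.02 at day 7 and -4.00 at day 14, which is 3.05-fold lower in Hepa1-6 than in ES.

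Past 3-fold at both days, the lipid phosphate phosphatase list had 1 gene higher and 1 lower. The list of other LPA synthesis and use also had 1 higher and 1 lower. The shares of all probes were 6.29% higher and 3.47% lower. Of 6 detected lipid phosphate phosphatase genes, *Plpp3*, whose product degrades extracellular LPA, went from 2.88 in EHe to 0.60 in EHeD7 and 0.10 in EHeD14, 4.86-fold and 6.88-fold lower. *Plppr4*, a related brain protein, was not well above background in EHe, and was at least 2.29-fold higher in EHeD7 and at least 1.63-fold higher in EHeD14, so its place past 3-fold rests on a dim value. Of 11 detected genes for other routes of LPA synthesis and use, *Agpat3*, an acyltransferase that consumes LPA, was 4.22-fold higher in EHeD7 and 6.41-fold higher in EHeD14. *Liph*, a phospholipase that makes LPA from phosphatidic acid, was 4.02-fold and 6.60-fold lower, and at least 104-fold lower in Hepa1-6 than in ES. Between the same parents, *Pla1a*, a phospholipase specific for phosphatidylserine, was 18.3-fold higher in the hepatoma line and *Agpat4* at least 293-fold lower.

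The 4 integrin genes whose products are known to bind autotaxin had none past 3-fold at both days. *Itgav*, which encodes the alpha-v subunit, was 25.7-fold higher in Hepa1-6 than in ES. Of the 12 YAP and serum response factor (SRF) targets, 8 were over 3-fold higher at both days and 0 were lower. Over all probes the shares were 6.29% and 3.47%. The 8 became 7 with dim values at the detection limit, and also 7 with normexp. The median log2 difference of the 12 as measured was 2.52 at day 7 and 3.04 at day 14, beside -0.08 and -0.07 for all probes. The median of the 12 was 2.19 and 2.16 with *Axl* and *Ankrd1*, both dim in EHe, at their bounds, or at 0 where there was none. *Ccn2*, which encodes connective tissue growth factor, went from -1.51 in EHe to 4.33 in EHeD7 and 4.65 in EHeD14, and stood at 1.23 in ES and 6.50 in Hepa1-6. *Cnn1*, encoding calponin, was 28.1-fold higher in EHeD7 and 38.1-fold higher in EHeD14 than in EHe, and *Lats2*, a Hippo pathway kinase gene, was 12.7-fold and 16.0-fold higher. In Hepa1-6 against ES, 6 of the 12 were over 3-fold higher and 2 lower, beside 14.4% and 25.3% of all probes. *Cnn1* was among the lower, by at least 6.77-fold. The 2 became 1 with median centring, and also 1 with normexp.

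*Tagln*, a smooth muscle marker, was 15.7-fold and 13.2-fold higher by its brighter probe, and by that probe 2.84-fold lower in Hepa1-6 than in ES. *Ankrd1* and *Acta2* were named after their values were seen, beyond the number of genes allowed per list. *Ankrd1* passed the naming thresholds, and was 113-fold higher in Hepa1-6 than in ES. In EHe it was at least 15.1-fold below ES. *Acta2* passed neither threshold by its brightest probe. *Ankrd1* was among the 8, but its value in EHe was not well above background, and its bound at day 14 was at least 1.76-fold higher. The probes of *Acta2* disagreed, with a log2 difference EHeD14 minus EHe of 0.02 for the brightest and 3.22 and 1.75 for the other 2. Serum concentration differed between the EHe medium and the differentiation medium, and leukaemia inhibitory factor was listed for the former alone. Medium and differentiation therefore cannot be told apart in any contrast of EHeD7 or EHeD14 with EHe. The Hepa1-6 and ES media differed in serum and in leukaemia inhibitory factor too, so medium and cell line cannot be told apart in Hepa1-6 against ES.

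**Figure D4:**
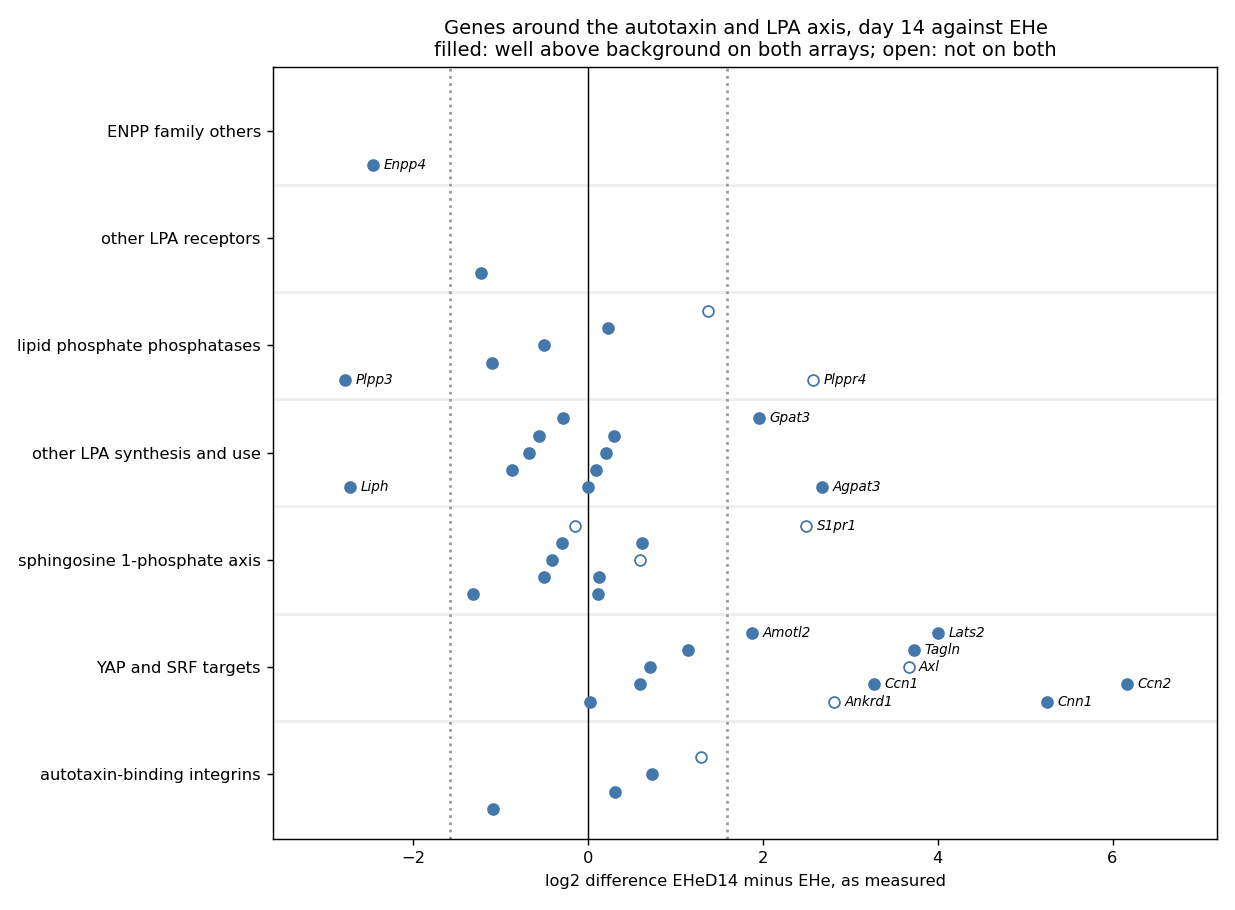
Log2 difference EHeD14 minus EHe as measured (horizontal axis) for the detected genes of 7 of the lists around the autotaxin and LPA axis (vertical axis; vertical offsets within a list only separate points); filled points were well above background on both arrays, open points were not, and dotted lines mark 3-fold. The YAP and SRF target list had 8 genes beyond the right-hand line, and *Enpp4*, *Plpp3* and *Liph* lay beyond the left-hand line.

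Cell type markers also differed between the arrays, not all in the direction of *Enpp2*, and their part in the autotaxin change was not tested. All 6 mesenchyme and fibroblast markers were well above background in EHeD7 and EHeD14, 4 of 6 were in EHe, and 2 of 6 were in Hepa1-6. Their summed level was 1.76 in ES and 0.217 in Hepa1-6, and in the hybrids 0.991 before differentiation, 4.88 at day 7 and 5.43 at day 14, with *Col1a1*, *Col3a1*, *Pdgfrb* and *Thy1* not well above background in Hepa1-6. The other 2 were well above background in Hepa1-6, *Col1a2* at -4.18 and *Pdgfra* at -3.11. Of 4 choroid plexus markers, a tissue rich in autotaxin, *Kl* was not well above background on any array, and the summed level was 0.155 in Hepa1-6 and 18.2 in ES, and in the hybrids 14.6 before differentiation, 17.4 at day 7 and 18.4 at day 14. The near-level sum joined opposite moves. *Otx2* was higher than in EHe by 4.02 at day 7 and 4.14 at day 14 and *Clic6* by 3.48 and 4.21 on the log2 scale, while *Folr1* differed by -1.47 and -1.69. *Otx2*, *Clic6* and *Kl* were not well above background in Hepa1-6. Of 4 adipocyte markers, *Adipoq* was not well above background on any array and *Fabp4* only in Hepa1-6, and the summed level was 10.9 in Hepa1-6 and 3.09 in ES, and in the hybrids 1.40 before differentiation, 2.14 at day 7 and 2.10 at day 14.

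The further marker lists moved as follows. The 6 visceral and parietal endoderm markers were all well above background in the first 4 populations, with a summed level of 5.24 in ES and 0.448 in Hepa1-6, and in the hybrids 1.10 before differentiation, 2.36 at day 7 and 4.39 at day 14. *Sox7* was lower in both differentiated hybrids than in EHe, at -1.43 before differentiation, -4.44 at day 7 and -2.77 at day 14. The 4 neural markers summed to 4.73 in ES, 9.40 in EHe, 13.6 in both EHeD7 and EHeD14 and 0.634 in Hepa1-6, with *Pax6* well above background in ES and EHe and on no other array. The higher sum after differentiation came from *Nes*, with log2 differences to EHe of 1.97 (day 7) and 1.95 (day 14). The other 3 were lower than in EHe, with log2 differences of -1.18 and -1.25 for *Sox1*, -2.70 and -2.49 for *Tubb3* and, as bounds, -5.94 and -5.34 for *Pax6*. The 4 endothelial markers summed to 0.863 in ES and 0.0654 in EHeD14, with *Cdh5* and *Kdr* not well above background on any array.

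The genes with the pattern most like *Enpp2* and *Lpar1* were found over the 5 arrays among 14439 genes, by the root mean square difference of levels centred on their mean, with values not well above background set to the detection limit of the array. *Enpp2* was at that limit in ES and EHe, so its distances rest on limits there, and no order is read among its 5 genes. For *Enpp2* they were *Nrcam*, a neuronal cell adhesion gene, at 0.38, *Zfp608* at 0.52, *Slc39a8*, a zinc and manganese transporter gene, at 0.54, *Fst*, which encodes the activin-binding protein follistatin, at 0.76, and *Mal2* at 0.77. *Nrcam* was at -4.18 in ES and -3.26 in EHe, against 2.44 in EHeD7, 2.54 in EHeD14 and 2.91 in Hepa1-6, well above background on all 5 arrays. For *Lpar1* they were *Sox15* at 0.22, *Lrrc15* at 0.28, *Abat* at 0.32, *Clgn* at 0.37 and *Serping1*, the gene of the complement C1 inhibitor, at 0.37. *Lpar1* was at the limit in Hepa1-6, as were *Lrrc15*, *Abat*, *Clgn* and *Serping1*. These distances therefore rest on the limit there, and no order is read among the genes for *Lpar1* either. *Sox15*, a SOX factor gene of pluripotent cells, was at 3.12 in ES and -2.25 in Hepa1-6, and in the hybrids 1.09 before differentiation, 0.90 at day 7 and 0.57 at day 14. By Pearson correlation in place of this measure, 1 of the 5 genes for *Enpp2* (*Zfp608*) and 0 of the 5 for *Lpar1* were the same.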

How the data were processed

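The authors hybridised Cy3-labelled RNA by the labels (Cy5 by the study's methods) to single-colour Agilent arrays, and deposited Agilent Feature Extraction 10.7.3.1 tables whose processed signal is a background-subtracted intensity, with a flag (0 or 1, a score of the software) for spots well above background per the file headers. The deposited series value table held the same signals. From these, levels were computed as log2 intensity minus log2 of the 75th percentile over gene spots. Outlier spots (73 to 174 per array) were left out and spots of a probe averaged. A probe was well above background where at least 50% of its spots were. The probes kept had a value on all 5 arrays and that call on 1 or more of them, and the brightest probe stood for a gene. A bound used the lowest level called well above background. Counts past 3-fold used differences as measured, dim values included. Protein sequences were not used here. Probes were named through RefSeq for 26888 of 41174 probes.

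Groups came from the labels. No tests were made, since each population had 1 array. Members, lists and thresholds were chosen with earlier results of these data known, and the counts above both parents were added after seeing the data. Every member was named. List genes were named where past 3-fold at both days or past 10-fold between Hepa1-6 and ES, at most 4 per list, and the result of 1 list is not reported here. The count script, tested on simulated 8-fold shifts, found 200 of 200 raised and 200 of 200 lowered probes. All simulated probes were set well above background, so calls that rest on dim values were not tested. Alternatives were a 2-fold threshold, limma 3.58.1 normexp (offset 50, on median spot signal), quantile normalization, median centring, other filters and the mean of probes. Python 3.11.15, pandas 2.3.3 and R 4.3.3 were used. Arrays give no read depth, and their number limits the precision.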

Additional observations from a re-analysis of the deposited data

How the results depend on the processing

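No member difference changed direction among those called past 3-fold under normexp, quantile normalization, median centring, detection-limit values or the mean of probes. No paired analysis was possible because there was a single array per population. Depth is bounded by signal over background, and dim values carry no order. The causes of the shifts below were not tested.

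Member counts were marked as moved in 9 of 98 combinations of a count and a setting, by a rule that left some small changes unmarked. Among the unmarked, normexp took the genes higher from 4 to 3 in EHeD7 and in EHeD14 against EHe, without *Enpp1*. It did the same in Hepa1-6 against ES, without *Lpar2*. With a 2-fold threshold, EHe against ES had 3 genes higher and 3 lower, EHeD14 against EHe had 1 lower, and 2 genes lay above both parents in EHe and 2 at both days. EHe against ES had 2 higher with quantile normalization, 2 with median centring and 2 with the mean of probes, since *Lpar4* passed 3-fold, and median centring gave 1 lower in EHeD14 against Hepa1-6. The genes most like *Enpp2* and *Lpar1* by Pearson correlation shared 1 and 0.

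List counts for EHe against ES were 7 higher and 7 lower at 2-fold and 1 higher with normexp. For Hepa1-6 against ES, 15 were lower at 2-fold, 3 with median centring and 5 with normexp. At both days 5 were lower at 2-fold.

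Over all probes, the 2-fold counts were 2758 higher and 3684 lower for EHe against ES, 4438 and 3218 for EHeD7 against EHe, 4357 and 2831 for EHeD14 against EHe, 737 and 892 for EHeD14 against EHeD7, 5877 lower for EHeD14 against Hepa1-6, and 1530 (EHe) and 2133 (both days) above both parents. Normexp gave, in the order of EHe against ES, EHeD7 and EHeD14 against EHe, EHeD14 against EHeD7, Hepa1-6 against ES and EHeD14 against Hepa1-6, 229, 896, 949, 36, 2513 and 2861 higher and 394, 497, 609, 42, 3369 and 2390 lower, with 139 and 448 above both parents. Restricting to probes detected on all 5 arrays gave, in that order, 361, 664, 691, 17, 2382 and 2040 higher and 351, 391, 466, 32, 2773 and 2128 lower, with 122 and 221 above both parents. Dim values at the detection limit gave 826 lower in EHe against ES, 1502 and 1545 higher at day 7 and day 14 against EHe, and 186 higher and 179 lower between the days. Median centring gave 6991 higher and 4701 lower for Hepa1-6 against ES and 4075 higher and 6954 lower for EHeD14 against Hepa1-6. Without a filter, 795 were higher in EHeD14 against EHeD7.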

Other observations

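The related sphingosine 1-phosphate axis was read from 10 detected genes. At both days against EHe, 1 was over 3-fold higher and 0 were lower, beside 6.29% and 3.47% of all probes. That gene, *S1pr1*, which encodes a sphingosine 1-phosphate receptor of the same family as *Lpar1*, had values of -7.18 in ES and -7.01 in EHe, neither well above background. It stood at -3.72 in EHeD7, -4.52 in EHeD14 and -1.87 in Hepa1-6. It was at least 2.17-fold higher in EHeD7 and at least 1.25-fold higher in EHeD14 than in EHe, and at least 11.7-fold higher in Hepa1-6 than in ES. As for *Enpp2* and *Lpar6*, its values were higher in both differentiated hybrids and in Hepa1-6 than in ES and EHe.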
